A study of Arabidopsis thaliana with 24 samples.

Results

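The genes described here are 39 nuclear photosynthesis genes of Arabidopsis thaliana, followed in root RNA with and without abscisic acid (ABA). They were chosen by locus identifier from the 34218 features of the deposited count table. The rule held no measured value, but earlier results of these data were known when the genes were chosen. The 39 genes comprise 14 antenna genes of photosystem II (LHCB), 6 antenna genes of photosystem I (LHCA), 4 genes of the Rubisco small subunit (RBCS), 8 genes of the photosystem I core (PSA), 5 genes of the extrinsic photosystem II proteins (PSB) and 2 plastocyanin genes (PETE). All 39 were found in the table.

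The study sequenced RNA from 24 libraries of 5-day-old roots, 3 for each of 8 groups. The seedlings were F1 plants of a UAS::abi1-1 line crossed with C24, which carries no driver, or with enhancer trap line J0571, J1721 or Q0990, and each cross was treated with 1 µM ABA or mock for 8 h. All 8 groups therefore carry the UAS::abi1-1 transgene. The product of abi1-1, a dominant allele of the phosphatase gene ABI1, keeps cells from responding to ABA, and a UAS transgene is expressed where a trap line supplies its activator; the labels do not name the cells each line covers. Seedlings were grown under 16 h of light, 50 to 100 were pooled per library, and the root part taken is given as 1 cm. The replicate numbers are not stated to be separate cultures, so every p-value reflects spread among seedling pools, which may be technical.

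Light-harvesting (LHC) proteins bind chlorophyll and pass absorbed energy to the 2 photosystems, whose core and extrinsic proteins split water and move electrons; plastocyanin is the copper protein that carries electrons to photosystem I. Rubisco fixes carbon dioxide, with its small subunit encoded in the nucleus. In green tissue these are among the most abundant transcripts, whereas root plastids are mostly non-green and the genes are held at lower levels, under regulators such as GLK and GATA factors that promote chloroplast development.

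Several members are near-identical copies, which bears on how reads could be assigned between them. The first 60 coding bases of the 4 Rubisco small subunit genes are printed below from RefSeq assembly TAIR10.1 (the Columbia accession, not necessarily the sequence of the lines studied), 5′ to 3′ on the coding strand, with capitals where a copy differs from RBCS1A. RBCS1A lies on chromosome 1 and the others lie on chromosome 5, and all 4 are on the minus strand.
RBCS1A: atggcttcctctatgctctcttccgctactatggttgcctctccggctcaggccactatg
RBCS1B: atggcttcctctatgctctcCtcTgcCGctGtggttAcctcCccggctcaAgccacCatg
RBCS2B: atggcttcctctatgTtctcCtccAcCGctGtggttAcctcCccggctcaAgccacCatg
RBCS3B: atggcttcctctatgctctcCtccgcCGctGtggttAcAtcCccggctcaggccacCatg
RBCS1B and RBCS2B were identical at 97.3% of their aligned coding bases, while RBCS1A matched the other 3 at 87.7 to 90.1%. RBCS1A differed from each of them at 8 to 10 of the 60 bases shown.

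The same holds for LHCB1.1, LHCB1.2 and LHCB1.3, which encode the main light-harvesting protein of photosystem II on chromosome 1, LHCB1.3 on the plus strand and the others on the minus strand. Capitals mark bases that differ from LHCB1.1.
LHCB1.1: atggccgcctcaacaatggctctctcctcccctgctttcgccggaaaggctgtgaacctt
LHCB1.2: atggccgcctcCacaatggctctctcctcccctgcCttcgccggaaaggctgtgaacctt
LHCB1.3: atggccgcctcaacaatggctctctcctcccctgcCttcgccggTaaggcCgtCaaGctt
These 3 copies were identical at 95.6 to 96.4% of coding bases. No stretch of 150 exon bases, the read length, was shared whole between them, but pairs with fewer differing bases can still be assigned wrongly.

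Library totals ranged from 38542817 to 61555387 counts. The ABA treatment was visible in every line through RAB18, a dehydrin gene, whose averaged log2 change was 6.13 ± 0.17 (SE; edgeR's quasi-likelihood test, adjusted p = 4.19e-19), and through RD29B at 9.55 ± 0.17 and HAI2 at 7.43 ± 0.38. ABI1, whose counts cannot be split between the endogenous gene and the transgene, averaged 97.7 ± 6.4 CPM (counts scaled to the library total; SD, n = 3) in C24 mock roots and 115 ± 2.2, 103 ± 1.4 and 111 ± 6.3 in the J0571, J1721 and Q0990 mock roots. RAB18, RD29B, HAI2 and ABI1 were each called higher after ABA in every line. After ABA, RAB18 averaged 36.9, 15.4, 34.5 and 32.9 CPM in C24, J0571, J1721 and Q0990, and RD29B 396, 174, 381 and 403. For both, the J0571 ABA libraries lay below those of the other lines without overlap. HAI2 averaged 12.7, 12.6, 20.5 and 23.1 CPM in the same order. None of these genes was called in the difference in response between J0571 and C24. All 16 root marker genes had counts in all 24 libraries. Of 21 shoot marker genes, 10 passed the low-count filter. The leaf and guard cell genes FMA, MUTE, AFO, EPF1, EPF2, EPFL9, YAB2 and YAB5 had 0 to 4 counts in all libraries together. Other leaf and guard cell genes of the list had more: KAT1 had 23 counts, TMM 206, SPCH 287, MYB60 410, KAN 13137 and AS1 24478. The summed shoot list was at 85.7 to 94.3 CPM in mock and 110 to 127 CPM in ABA-treated libraries, and the 3 genes called higher in it were the wax genes CER1, KCS6 and CER3. Its part in the results was not tested.

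One library bears on many values below. In C24 mock library 1, 27 of the 30 tested members lay above their group mean, with a median deviation of 0.433 on the log2 scale, and in J1721 ABA library 2 the figures were 28 of 30 and 0.366. The summed CPM of the 39 genes was 221 to 367 in C24 mock, 185 to 240 in J0571 mock, 177 to 257 in J1721 mock and 241 to 342 in Q0990 mock libraries. After ABA it was 193 to 231, 204 to 224, 144 to 209 and 161 to 218 in the same order, so that mock and ABA libraries overlapped in C24, J0571 and J1721 but not in Q0990. In pooled tissue, fewer cells that express a gene and less RNA per cell cannot be told apart.

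**Figure D1:**
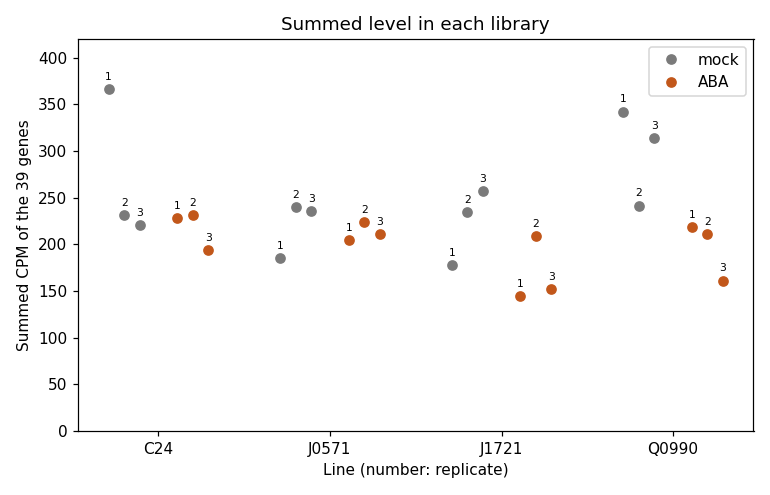
Summed CPM of the 39 genes in each library, with the replicate number above each point. C24 mock library 1 stands highest at 367 CPM, and C24 mock libraries 2 and 3 lie near the ABA-treated ones.

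Levels in roots are given as CPM per kb of exon, the only scale used here to compare genes. Of the 39, 30 passed the low-count filter, and 10 of these were above 8.85, the median of 21267 tested genes with a length. PSBR (AT1G79040), a small photosystem II subunit, led with a mean of 48.1 over the 24 libraries (range 31.7 to 77.8), at the 88.1th percentile of tested genes. It stood well apart from the next members: PSBO1 (AT5G66570), the main manganese-stabilizing protein of the water-splitting complex, had 13.5, the minor monomeric antenna protein LHCB4.1 (AT5G01530) had 12.2, and PSAF (AT1G31330), the plastocyanin-docking subunit of photosystem I, had 11.9. PSBP1 (AT1G06680), another extrinsic protein, followed at 11.8 and plastocyanin PETE2 (AT1G20340) at 10.9. The libraries' ranges of PSBO1 to PETE2 overlap, so their order is not resolved.

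The Rubisco small subunit was represented in roots almost wholly by RBCS1A (AT1G67090), with 6.49 CPM per kb and 8957 counts over all libraries. RBCS3B (AT5G38410) had 24 counts in total, 12 of them in a single Q0990 mock library, and RBCS1B (AT5G38430) and RBCS2B (AT5G38420) had none. A count of 0 allows up to 3 counts per library, which is 0.0487 to 0.0778 CPM. None of these 3 is overlapped by an annotated gene in TAIR10.1, and 4.81%, 0% and 7.92% of the 150-base exon stretches of RBCS1B, RBCS2B and RBCS3B occur elsewhere. Whether the counting step dropped their reads was not tested.

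The LHCB1 copies were unequal in the same way. LHCB1.3 (AT1G29930) had 9.57 CPM per kb and 12888 counts, LHCB1.2 (AT1G29910) had 0.79 and 1069 counts, and LHCB1.1 (AT1G29920) had 32 counts in all. LHCB1.4 (AT2G34430) had 132 counts. LHCB1.5 (AT2G34420) had none, but in TAIR10.1 all of its exon bases are overlapped by other annotated genes, and the kit named in the labels does not mark strand, so its reads could not be told from theirs. The LHCB2 genes, partner antenna proteins of LHCB1, were also scarce: LHCB2.1 (AT2G05100) had 84 counts, LHCB2.2 (AT2G05070) had 28 and LHCB2.3 (AT3G27690) had 13. Another annotated gene overlaps 40.6% of the exon bases of LHCB2.3, so its low count is uncertain. LHCA6 (AT1G19150), a minor antenna gene used in photosystem I supercomplexes, had none. Duplicated pairs were uneven as well, with PSAD1 (AT4G02770), a stromal subunit of photosystem I, at 9.23 and PSAD2 (AT1G03130) at 0.54 CPM per kb.

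**Figure D2:**
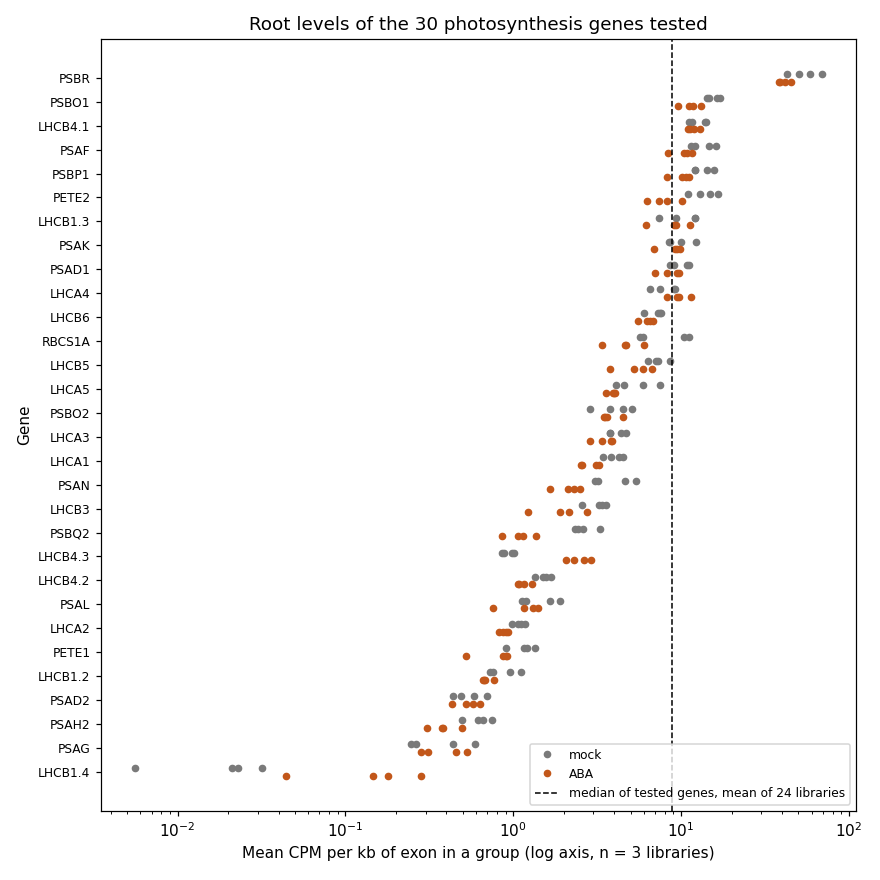
Mean CPM per kb of exon in each of 8 groups (4 mock and 4 ABA points per gene, log axis) for the 30 tested members, ordered by level. The dashed line is the median of tested genes at 8.85; PSBR lies highest and LHCB1.4 lowest.

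Averaged over the 4 lines, ABA was followed by lower levels of most members. Of the 30 tested, 17 fell, 3 rose and 10 did not pass the test (edgeR's quasi-likelihood test, adjusted p under 0.05), against 27.6% of all genes lower and 27.6% higher, 55.2% called in all. The median log2 change of the 30 was -0.373, beside -0.01 for all genes tested. The members with the 15 higher and the 15 lower levels had 11 and 9 calls. In every one of the 30 alternative settings 16 of the 20 kept their call; LHCA3, LHCA4, LHCB6 and PSAD1 lost it in 10 to 12.

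Of the 5 extrinsic photosystem II genes, 4 fell (80% called, beside 55.2% of all genes). PSBQ2 (AT4G05180), which stabilizes the water-splitting complex, was at 2.34, 3.24 and 3.71 CPM in the C24 mock libraries and 0.967, 1.56 and 1.56 CPM after ABA. In Q0990 it was at 3.05, 4.51 and 4.99 in mock and 0.689, 1.64 and 2.03 after ABA. All ABA libraries lay below all mock libraries of their own line, in all 4 lines. The average log2 change was -1.28 ± 0.17 (SE, adjusted p = 6.24e-07), the lowest adjusted p among the members. PSBO1 also showed no overlap in any line, with an average of -0.45 ± 0.07 (adjusted p = 8.78e-06); in C24 its mock libraries were at 21.4, 22.2 and 29.9 CPM and its ABA libraries at 18.7, 19.2 and 21.1. PSBP1 changed by -0.43 ± 0.10 and PSBR by -0.41 ± 0.09, both called. PSBO2 (AT3G50820), the second copy of the manganese-stabilizing protein, gave -0.08 ± 0.14 and was not called.

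**Figure D3:**
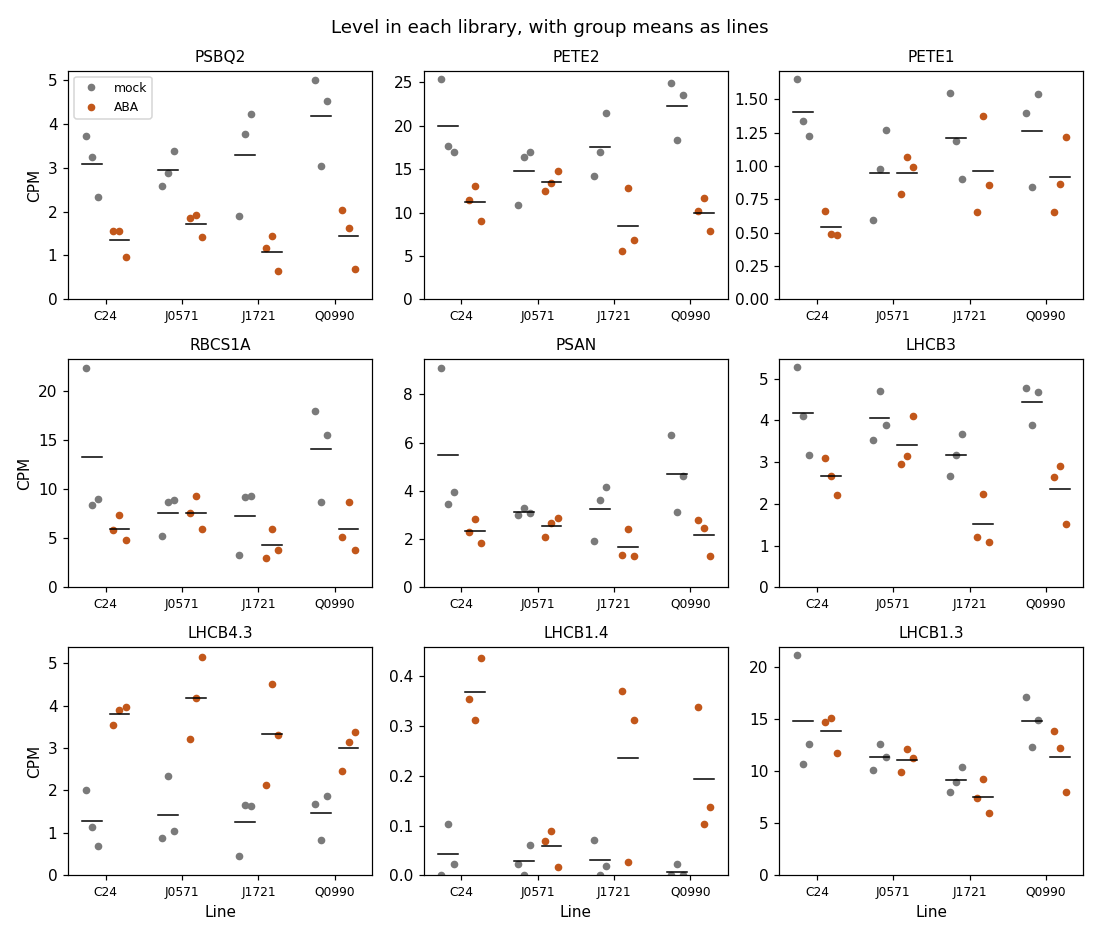
CPM in each library (points) and group mean (black line) for 9 members, mock in grey and ABA in orange. PSBQ2 is lower and LHCB4.3 higher after ABA in all 4 lines without overlap; RBCS1A and PSAN show the high C24 mock library 1.

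Both plastocyanin genes fell. PETE2 was at 16.9, 17.6 and 25.3 CPM in C24 mock and 9.04, 11.4 and 13 after ABA, and at 18.4, 23.5 and 24.9 in Q0990 mock and 7.85, 10.2 and 11.7 after ABA. In J1721 it was at 14.3, 17 and 21.5 in mock and 5.53, 6.89 and 12.9 after ABA. These 3 lines did not overlap, whereas in J0571 mock libraries at 10.9, 16.4 and 17 enclosed ABA libraries at 12.5, 13.3 and 14.8. The average was -0.80 ± 0.12 (adjusted p = 3.72e-06). PETE1 (AT1G76100), the less abundant copy, averaged -0.54 ± 0.17 (adjusted p = 0.00919); its C24 libraries were at 1.23, 1.34 and 1.66 in mock and 0.483, 0.49 and 0.66 after ABA.

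RBCS1A, the only Rubisco small subunit gene tested, averaged -0.80 ± 0.20 (adjusted p = 0.00141). Its C24 mock libraries were at 8.35, 9 and 22.3 CPM and its ABA libraries at 4.76, 5.85 and 7.31. The Q0990 mock libraries were at 8.7, 15.5 and 17.9 and the ABA libraries at 3.82, 5.16 and 8.71. The C24 groups did not overlap, but 1 mock library was far above the others, and in Q0990 the highest ABA library just passed the lowest mock library.

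Among the photosystem I core genes 3 of 8 fell and none rose, so 37.5% were called, below the 55.2% of all genes. PSAN (AT5G64040), a lumenal subunit at the plastocyanin site, changed most at -0.90 ± 0.18 (adjusted p = 0.00013); it was at 3.46, 3.93 and 9.08 CPM in C24 mock and 1.84, 2.31 and 2.83 after ABA. Its C24 groups did not overlap, with the mock mean raised by library 1. PSAF averaged -0.40 ± 0.09 and PSAD1 -0.21 ± 0.08. The others gave -0.15 ± 0.12 for PSAK (AT1G30380), -0.35 ± 0.20 for PSAL (AT4G12800), -0.68 ± 0.34 for PSAH2 (AT1G52230), -0.02 ± 0.23 for PSAD2 and 0.07 ± 0.27 for PSAG (AT1G55670), none called. PSAG shares 61.4% and PSAH2 24.8% of their exon bases with another annotated gene, so their low counts (334 and 397 in all) are uncertain.

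The antenna genes were mixed. In photosystem I, LHCA1 (AT3G54890) averaged -0.49 ± 0.11, LHCA5 (AT1G45474) -0.47 ± 0.10 and LHCA3 (AT1G61520) -0.25 ± 0.10, all lower, while LHCA4 (AT3G47470) rose by 0.27 ± 0.11 (adjusted p = 0.0367) and LHCA2 (AT3G61470) gave -0.31 ± 0.22 and was not called. In photosystem II, LHCB3 (AT5G54270), a subunit of the outer antenna trimers, fell by 0.73 ± 0.13 on the log2 scale (adjusted p = 3.03e-05). In C24 it was at 3.17, 4.1 and 5.27 CPM in mock and 2.21, 2.67 and 3.09 after ABA, without overlap. The monomeric antenna genes LHCB5 (AT4G10340), LHCB4.2 (AT3G08940) and LHCB6 (AT1G15820) averaged -0.46 ± 0.09, -0.41 ± 0.11 and -0.18 ± 0.07, each called. Other annotated genes overlap 20.4% of the exon bases of LHCB6. LHCB1.3 gave -0.20 ± 0.11, LHCB1.2 -0.34 ± 0.18 and LHCB4.1 -0.11 ± 0.10, none called; summed, LHCB1.1 to LHCB1.3 gave -0.21 ± 0.10 (adjusted p = 0.0899).

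LHCB4.3 and LHCB1.4, also photosystem II antenna genes, went the other way. LHCB4.3 (AT2G40100), an LHCB4 relative also known as LHCB8, was at 0.694, 1.13 and 2.01 CPM in C24 mock and 3.54, 3.90 and 3.96 after ABA. In J0571 it was at 0.891, 1.05 and 2.35 in mock and 3.22, 4.18 and 5.15 after ABA; in J1721 at 0.452, 1.63 and 1.66 against 2.13, 3.31 and 4.52; and in Q0990 at 0.839, 1.69 and 1.88 against 2.45, 3.14 and 3.38. No mock library reached an ABA library in any line. The average was 1.38 ± 0.20 (adjusted p = 3.36e-06), and the Q0990 response missed the threshold in edgeR's test (1.03 ± 0.41, adjusted p = 0.0592). That response was called by DESeq2 (adjusted p = 0.0331), with no low-count filter (adjusted p = 0.0436) and with mock library 1 of all lines left out (adjusted p = 0.023). It stayed uncalled with RLE scaling, a replicate block, summed copies and any single Q0990 library left out. Its coding sequence matched LHCB4.1 at 65.2% and LHCB4.2 at 66.5% of aligned bases, against 81.1% between those 2.

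LHCB1.4 was called higher in the average, but on few counts. C24 mock libraries held 0, 5 and 1 counts and C24 ABA libraries 15, 14 and 19, a ratio of 8.74 after scaling for depth (95% exact binomial interval 3.73 to 25, counting error only). In J1721 the totals were 4 in mock and 35 after ABA, a ratio of 7.89 (2.82 to 30.6), with only 1 of the 35 in ABA library 2. Q0990 had 1 and 26 counts, with a lower bound of 4.3 on the ratio. In J0571 there were 4 and 8 counts, a ratio of 2.09 (0.561 to 9.5), an interval that includes no change. The fitted log2 change of so rare a transcript depends on the small count added in the fit and is not quoted.

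**Figure D4:**
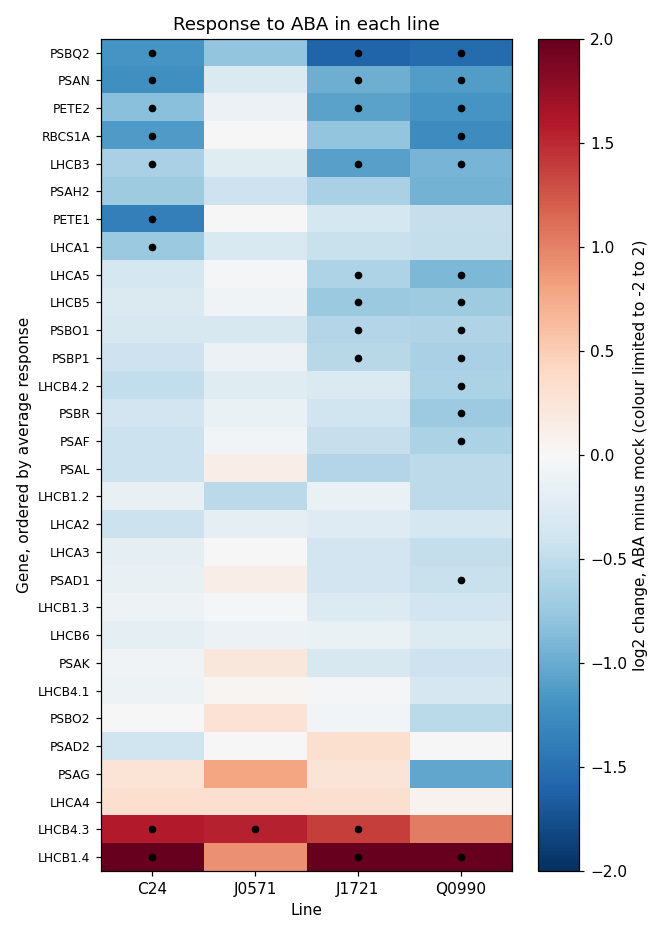
Fitted log2 change after ABA in each line for the 30 tested members, ordered by the average response, with dots on the calls. Blue dominates in C24, J1721 and Q0990, and J0571 holds a single dot, LHCB4.3; colour is limited to -2 to 2.

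Line by line, the counts of calls differed. In C24, with no driver, 7 of 30 fell and 2 rose, while 34% of all genes were called. In J1721 8 fell and 2 rose (28.6% of all genes called), and in Q0990 13 fell and 1 rose (31.2%). In J0571 1 rose, LHCB4.3, and none fell (24.3%); 3 of the 30 were at an unadjusted p under 0.05, and DESeq2 also called 1. In either direction the share of members called was 30%, 3.33%, 33.3% and 46.7% in C24, J0571, J1721 and Q0990. In C24, J0571 and J1721 it was close to or below that of all genes. The share called lower was 23.3%, 0%, 26.7% and 43.3%, beside 15.4%, 9.87%, 12.7% and 14.2% of all genes. LHCB3, PETE2, PSAN and PSBQ2 were called lower in C24, J1721 and Q0990, but not all of these calls were stable. Leaving out 1 of the 6 libraries of a line ended the call of PSAN in 4 of 6 cases in J1721, 2 in Q0990 and 1 in C24, and that of LHCB3 in 4 of 6 in C24 and 1 in Q0990. PETE2 and PSBQ2 each lost theirs once, in C24. With the replicate number as a block, PSAN in J1721 (adjusted p = 0.0505) and LHCB3 in C24 (adjusted p = 0.0523) were not called. Of the 2 rises in J1721, LHCB1.4 and LHCB4.3, only 1 was called in each of the 6 fits with a library left out, and the rise in Q0990, LHCB1.4, was called in 3 of 6.

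The C24 count rests in part on mock library 1. Without it, 4 members were called, 2 of them lower, and RBCS1A (-0.54, adjusted p = 0.302), PSAN (-0.67, adjusted p = 0.133), PETE2 (-0.63, adjusted p = 0.0586), LHCB3 (-0.45, adjusted p = 0.213) and LHCA1 (-0.54, adjusted p = 0.0731) lost their calls. LHCB1.4 also lost its call (adjusted p = 0.0598), and LHCA4 gained one (0.71, adjusted p = 0.00634), so that the 2 called higher were LHCB4.3 and LHCA4. Without ABA library 3 of C24 the count was 5. Among driver lines the count was 6 without each of J1721 ABA libraries 1 and 3 and mock libraries 2 and 3, and 8 in Q0990 without ABA library 3.

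Median log2 responses were -0.363 in C24, -0.0432 in J0571, -0.382 in J1721 and -0.534 in Q0990. The difference between lines was tested directly, as the response in a driver line minus that in C24. These comparisons share the C24 libraries. No member was called in any of the 3 differences, where 0.403%, 0.169% and 0% of all genes were called for J0571, J1721 and Q0990; 2, 1 and 0 members had an unadjusted p under 0.05, and DESeq2 also called none. The difference with the lowest adjusted p was that of PETE1 in J0571, where mock libraries at 0.594, 0.977 and 1.27 CPM and ABA libraries at 0.787, 0.995 and 1.07 overlapped. Its response exceeded that in C24 by 1.37 ± 0.49 on the log2 scale (adjusted p = 0.37).

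For J0571, 26 of the 30 members had a difference above 0, with a median of 0.289, but this turned on the mock libraries numbered 1. With C24 mock library 1 left out the split was 16 above and 14 below, with a median over the same 30 of 0.0495, and with mock library 1 of all 4 lines left out it was 12 above and 18 below, with a median of -0.0732. A difference between the J0571 and C24 responses was therefore not shown for these genes. For Q0990 minus C24, 24 of the 30 were below 0 with a median of -0.272, and 21 to 26 were below 0 in the settings that kept all 30. For J1721 minus C24, 18 were below 0 with a median of -0.0235, and 10 to 24 in the settings that kept all 30. The count was 24 with a median of -0.571 when mock library 1 of all lines was left out. It was 10 with a median of 0.132 without C24 mock library 3, so the direction was not settled. No member was called in these settings either. For RBCS1A, J0571 mock libraries were at 5.19, 8.63 and 8.84 CPM and ABA libraries at 5.95, 7.55 and 9.32, which overlapped, and C24 mock libraries 2 and 3 were at 8.35 and 9 CPM beside 22.3 in library 1.

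No member was called between mock roots of a driver line and C24. In both J0571 and J1721, 27 of the 30 tested members were below C24 and 3 above. The median log2 differences were -0.246 in J0571 and -0.25 in J1721. The C24 mock mean includes the high library 1. Across all genes 0.474%, 0.0422% and 0.0469% were called in J0571, J1721 and Q0990; among the members 3, 5 and 1 had an unadjusted p under 0.05, and DESeq2 called none. After ABA, J0571 and Q0990 again had 0 members called (3.94% and 0.0751% of all genes; 2 and 1 members at an unadjusted p under 0.05; DESeq2, 0). In J1721 1 member was called against 1.29% of all genes. This was LHCB1.3, at 11.8, 14.7 and 15.1 CPM in C24 ABA libraries and 6, 7.47 and 9.27 in J1721 ABA libraries, without overlap, a difference of -0.87 ± 0.22 (adjusted p = 0.0412). The call was lost without C24 ABA library 1 or 2 or J1721 ABA library 1 or 3, and the summed LHCB1.1 to LHCB1.3 gave -0.81 ± 0.21 (adjusted p = 0.0569). LHCB1.3 was also lower in J1721 mock roots by a fitted -0.70 ± 0.21 that missed the threshold (adjusted p = 0.445).

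Genes of neighbouring pathways were listed for comparison, and their counts refer to the average response. In that response 27.6% of all genes were lower and 27.6% higher. Of 21 other photosystem and electron transport genes, 13 fell and none rose (median -0.305); PSAH-1, a copy of PSAH2, averaged -1.06 ± 0.20, NPQ4, the sensor protein of photoprotective quenching, -0.94 ± 0.09, PSBTN -0.71 ± 0.18 and PSB28 -0.60 ± 0.06. Of 16 Calvin cycle genes 10 fell and 1 rose, with FBA2, a plastid aldolase, at -3.06 ± 0.22 and SBPASE at -1.02 ± 0.12. HCEF1, a plastid fructose bisphosphatase, gave -2.11 ± 0.42 but was rare. It was at 0.248 ± 0.20 CPM in C24 mock and 0.177 ± 0.084 after ABA, with overlap. After ABA it was at 0.026, 0.037 and 0.028 CPM in J0571, J1721 and Q0990, so the size of its fall is uncertain. PRK, the phosphoribulokinase gene, was also called lower but was rare, at 0.177 ± 0.16 CPM in C24 mock and 0 in the C24 and Q0990 ABA libraries, and no fold is quoted. Chlorophyll synthesis had 12 of 16 lower and 1 higher, with the protochlorophyllide reductase gene PORB at -0.79 ± 0.11, CHLI2 at -0.63 ± 0.16, CHLM at -0.56 ± 0.10 and GUN5 at -0.51 ± 0.06. These 3 lists moved mostly in the direction of the members.

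Chlorophyll breakdown genes moved the opposite way, 5 of 7 higher and none lower. ACD1, the pheophorbide a oxygenase gene, went from 4.59 ± 0.69 to 27.6 ± 5.0 CPM (SD, n = 3) in C24 and from 4.70 ± 0.91 to 21.6 ± 3.0 in J0571, with an average log2 change of 2.51 ± 0.08. NYC1, a chlorophyll b reductase gene, averaged 2.33 ± 0.12, and NYE2 and NYE1, which start chlorophyll degradation, 1.65 ± 0.12 and 1.5 ± 0.08. This list held 5 calls in each of the 4 lines, J0571 included.

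Of 20 regulators tested, 13 fell and 3 rose. The GATA factor gene GNC averaged -2.39 ± 0.24, its relative CGA1 -0.79 ± 0.18, GLK2 -0.57 ± 0.09 and HY5 -0.21 ± 0.04, and GLK1 gave -0.42 ± 0.18 (adjusted p = 0.0513), not called. GNC was at 1.05 ± 0.38 CPM in C24 mock and 0.298 ± 0.0084 after ABA, but at 1.41 ± 0.30 and 1.04 ± 0.15 in J0571. It was called higher in ABA-treated J0571 than C24 roots (1.79 ± 0.45, adjusted p = 0.0218), while its difference in response was not called (1.36 ± 0.60, adjusted p = 0.541). PIF3, a phytochrome-interacting factor, rose by 2.28 ± 0.10 and the clock gene CCA1 by 2.62 ± 0.14, and PIF1 fell by 0.94 ± 0.16.

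Other lists were less uniform. Root and shoot markers were called less often (43.8% and 40%) than all genes (55.2%). The LHC relatives were at 63.6% and the plastid import list at 84.6%. Among 11 LHC relatives and insertion genes 5 fell and 2 rose, with the early light-induced gene ELIP1 at 0.94 ± 0.07, and CAO (AT2G47450), whose product delivers LHC proteins to the thylakoid, at -1.40 ± 0.16, and LIL3:1 and LIL3:2 at -0.62 ± 0.13 and -0.41 ± 0.06. Of 13 plastid import and non-green ferredoxin genes 9 fell and 2 rose, and all 4 named here were small: NIR1 0.28 ± 0.07, RFNR2 0.28 ± 0.09, TOC33 -0.26 ± 0.05 and TIC110 -0.30 ± 0.05. Root markers had 4 of 16 higher and 3 lower, with PYK10 at -0.49 ± 0.05 and CASP1, EXPA7 and SHV2 at 0.18 to 0.20. Shoot markers had 3 of 10 higher, CER1 at 1.51 ± 0.05, KCS6 at 1.04 ± 0.12 and CER3 at 0.54 ± 0.05, and 1 lower, TCP4 at -0.57 ± 0.07. Summed plastid-encoded genes were at 7.10 to 7.57 CPM in C24 mock and 10.6 to 13.2 after ABA, and at 9.98 to 10.6 and 12.6 to 18.2 in J0571, without overlap. In J1721 they were at 8.59 to 9.89 and 9.40 to 9.78 and in Q0990 at 7.35 to 9.92 and 8.31 to 11.6, with overlap in both lines. The sum of all plastid-encoded genes rests on only 283 to 784 counts per library and was not tested.

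**Figure D5:**
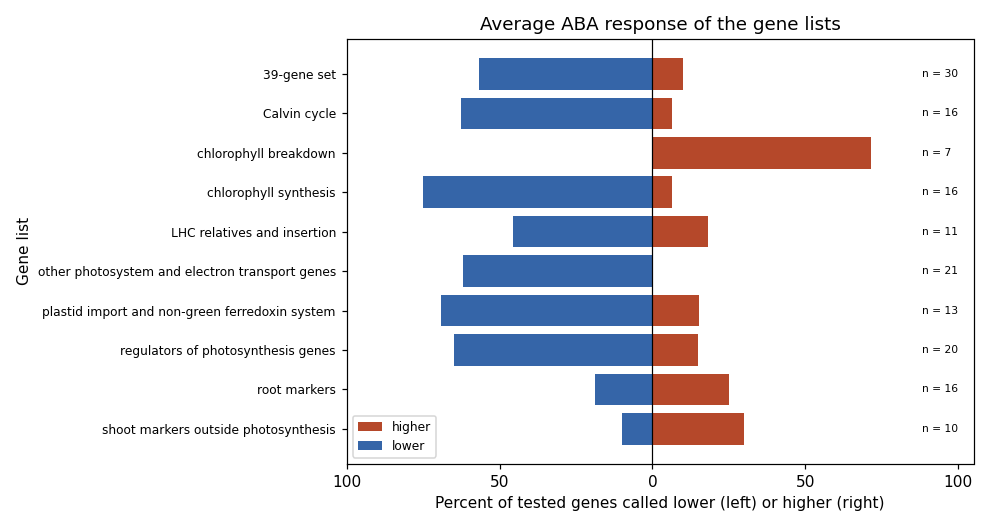
Percent of tested genes called lower (blue, left) or higher (red, right) in the average ABA response for the 39-gene set and 9 other lists, with the number tested. The chlorophyll breakdown list is the one with calls only to the right.

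The 250 bases before the annotated gene start were searched on both strands for 4 short motifs. The G-box CACGTG was found before 7 of the 39 members (17.9%, against 6.49% of 27443 protein-coding genes) and the I-box core GATAAG before 11 (28.2%, against 12.3%). The ABRE core ACGTG, which overlaps every G-box, was found before 14 (35.9%, against 22.9%) and the evening element AAAATATCT before 1 (2.56%, against 2.36%). These are matches of letters in one accession's reference and not binding sites. The windows of PSBQ2 and PETE2, which fell, and LHCB4.3, which rose, are printed 5′ to 3′ on the gene's strand (TAIR10.1, chromosomes 4, 1 and 2), with G-box, ABRE core and I-box matches on either strand in capitals.
PSBQ2: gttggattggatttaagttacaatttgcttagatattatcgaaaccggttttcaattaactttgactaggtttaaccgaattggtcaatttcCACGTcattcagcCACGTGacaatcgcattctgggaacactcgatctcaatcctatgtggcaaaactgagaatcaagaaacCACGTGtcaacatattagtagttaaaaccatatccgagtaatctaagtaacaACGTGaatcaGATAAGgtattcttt
PETE2: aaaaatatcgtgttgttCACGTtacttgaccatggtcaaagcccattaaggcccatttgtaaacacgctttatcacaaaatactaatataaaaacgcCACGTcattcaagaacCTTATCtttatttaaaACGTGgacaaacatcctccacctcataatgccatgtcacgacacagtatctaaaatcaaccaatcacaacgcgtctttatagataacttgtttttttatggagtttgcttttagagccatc
LHCB4.3: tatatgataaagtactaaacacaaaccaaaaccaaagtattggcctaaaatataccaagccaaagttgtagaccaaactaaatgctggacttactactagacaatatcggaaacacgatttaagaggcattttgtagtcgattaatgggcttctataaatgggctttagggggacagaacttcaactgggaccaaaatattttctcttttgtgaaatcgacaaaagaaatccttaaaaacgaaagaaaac
PSBQ2 holds G-box, ABRE core and I-box letters, PETE2 holds ABRE core and I-box letters without a G-box, and LHCB4.3 and RBCS1A hold none of the 4 motifs in this window. Among members with a G-box, PSBQ2 and LHCB6 were called lower in the average response, LHCA4 was called higher, and LHCB4.1 and PSAH2 were not called. The others with a G-box, LHCB2.3 and RBCS2B, were not tested.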

How the data were processed

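Root RNA of 24 libraries was sequenced as paired reads of 150 bases after library preparation with the NEBNext Ultra kit, per the labels' protocols. HISAT2 and HTSeq are named in the submitters' processing notes; no version, build, annotation or strand setting is given there. The deposited table holds raw read counts per gene, and no other unit was used. The 39 members and all gene lists were chosen with earlier results of these data known, so the direction of a list is not independent evidence.

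Counts were analysed in R 4.3.3 with edgeR 4.0.16 (limma 3.58.1): filterByExpr left 21315 genes, TMM scaled the libraries, and a quasi-likelihood model with 8 group means gave log2 changes, SE and p-values with Benjamini-Hochberg adjustment over all tested genes, called under 0.05. The calculation was tested on simulated data. CPM use TMM-scaled totals, and exon lengths come from TAIR10.1. Members are all reported; from each other list up to 4 called genes with the largest average change, in either direction, are named, plus GLK1, GLK2, GNC, CGA1, HY5, RAB18 and RD29B. Alternatives were RLE scaling, DESeq2 1.42.0, no filter, a replicate block, copies summed, leaving out each library and leaving out mock library 1 of all lines. Intervals and floors cover counting error only.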

Additional observations from a re-analysis of the deposited data

How the results depend on the processing

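The counts of members called in each of the 14 comparisons were recomputed with RLE scaling, DESeq2, no low-count filter, a replicate block, near-identical copies summed and libraries left out. The average ABA response gave 19 to 20 calls in the settings that drop no single library, and 16 to 21 when each was left out in turn. Leaving out one library gave 4 to 10 calls in C24, 6 to 12 in J1721, 8 to 14 in Q0990 and 1 in J0571. For ABA-treated J1721 against C24 it gave 0 to 3, DESeq2 gave 2 and summed copies gave 0. With mock library 1 of all lines left out, J0571 had 2 calls, the added one being PSBO1 (-0.41, adjusted p = 0.0221), and PSBO2 in C24 changed from a fitted -0.01 to 0.52 (adjusted p = 0.0447); the cause was not tested. Deviations from the group means correlated at -0.237 to 0.197 between same-numbered libraries, with 7 of 84 pairs above 0.1. Both extremes were between mock libraries numbered 1, C24 with J1721 and C24 with Q0990. Whether the numbers mark a pairing was not settled by this. With the replicate block, calls were 8 in C24, 1 in J0571, 9 in J1721, 13 in Q0990 and 20 in the average. There was 1 call in ABA-treated J1721 against C24 and 0 in the other comparisons. The 9 members not tested had at most 84 counts over all libraries, so changes in them could not be detected. Whether their low counts come from depth, overlapping genes (as for LHCB1.5 and part of LHCB2.3) or dropped reads was not tested.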
